A study of Mus musculus with 9 samples.

Results

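The cytosolic ribosomal protein genes were followed through the ageing of cardiomyocyte cultures made from mouse embryonic stem cells. They were taken from the array annotation by symbol: Rpl or Rps with a number (with or without the endings a, x, l, l1 or al), Rplp0 to Rplp2, and Rpsa. The pattern matched 77 symbols, and 48 of these had at least 1 probe set that listed no other gene. The remaining 29, among them Rpl3 and the stalk gene Rplp1, occurred only on probe sets that listed several genes and were not analysed here one by one. The 48 genes, out of 18193 measured, had 104 probe sets, and each gene was represented by its brightest one. They comprised 20 genes of the large subunit, 20 of the small subunit, the stalk genes Rplp0 and Rplp2, and 6 genes whose symbols mark them as paralogs of another ribosomal protein gene.

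The cells were the synp line, derived from R1 embryonic stem cells (129X1 x 129S1), in which the Ncx1 promoter drives the puromycin resistance gene PAC. Ncx1 encodes the exchanger of sodium and calcium in heart muscle. Cultures of all ages were differentiated with VEGF, bFGF, FGF10, Activin A and BMP4. All of them also received puromycin from day 7, which kills cells that leave that promoter silent. RNA was taken at day 10, day 20 and day 30, with 3 arrays at each age, and the study's stated aim was to see how far such cells mature in vitro. All cultures come from 1 cell line, and the labels do not say whether the arrays of an age were separate differentiations, so the p-values reflect the spread between samples only, and part of that may be technical.

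The cytosolic ribosome is built from ribosomal RNAs and a set of proteins that is made in nearly equal amounts in almost every cell. Large subunit proteins surround the site of peptide bond formation, small subunit proteins surround the messenger RNA, and the P stalk recruits elongation factors. Messenger RNAs of ribosomal proteins begin with a run of pyrimidines, through which growth signals set how fast they are translated. A few genes have a paralog with restricted expression, such as Rpl3l in striated muscle and Rpl39l in the testis.

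Runs of pyrimidines near the start of these genes can be read from the annotated promoters. The windows below are shown because they belong to genes that the results turn on. Each spans 15 bases before and 15 bases from the RefSeq start of the gene (build GRCm38.p6), written 5′ to 3′ on the gene's strand, and capitals mark 6 or more bases in a row that are C or T.
Rpl14, chr9:120571502-120571531, plus strand: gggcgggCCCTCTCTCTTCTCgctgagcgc
Rpl7a, chr2:26910792-26910821, plus strand: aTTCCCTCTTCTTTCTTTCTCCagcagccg
Rps18, chr17:33955651-33955680, minus strand: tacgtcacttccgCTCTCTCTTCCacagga
Rps26, chr10:128626492-128626521, minus strand: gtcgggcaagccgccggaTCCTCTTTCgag
Rpl39l, chr16:10170213-10170242, plus strand: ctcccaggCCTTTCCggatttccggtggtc
Rpsa, chr9:120127751-120127780, plus strand: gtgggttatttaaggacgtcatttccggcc
Rpl11, chr4:136053379-136053408, minus strand: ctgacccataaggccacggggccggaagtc
Rpl3l, chr17:24727811-24727840, plus strand: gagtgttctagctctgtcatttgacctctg

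Of the 48 genes, 42 had an entry in the RefSeq promoter table, with 50 annotated starts. Such a run lay in the window of 27 of the 42 (64.3%), against 32.7% of all 27025 genes in the table. On the opposite strand, where the same run reads as A or G in a row, it lay in 2 of the 42 (4.76%), against 36.0% of all genes. Rpsa, Rpl11 and Rpl3l have no run of this length in the windows printed, and neither does Rps3. Among the genes called between day 30 and day 10 it lay in 7 of 11 (63.6%), and among those not called in 20 of 31 (64.5%). A counted run can lie wholly before the annotated start, as in the Rpl39l window, and is then no part of the transcript annotated from there. These matches describe the letters of the windows and were not tested against the signals.

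The brightest probe sets of 35 of the 48 genes had a mean log2 signal of at least 11 over the 9 arrays, a level reached by 727 of all 18193 genes. On this scale a difference of 1 is a 2-fold change. The brightest 3 were those of Rps29 (13.72), Rpl37a (13.60) and Rpl13a (13.56), and the dimmest 3 were those of Rps16 (3.38), Rpl39l (4.15) and Rpl3l (5.01). The signal of a probe set depends on its own binding, so this order is not an order of transcript amounts. Rps16, a small subunit gene, read between 3.28 and 3.52 on every array in its only probe set, near the lowest value on any array (2.77). Replicate arrays agreed closely for these genes: the median SD within an age was 0.086, 0.069 and 0.083 at day 10, 20 and 30, against 0.187, 0.130 and 0.137 over all genes.

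Between day 30 and day 10, most ribosomal protein genes stood slightly lower at day 30. The median log2 difference of the 48 genes was -0.20, against -0.03 over all genes tested, and 41 of the 48 (85.4%) lay below 0, against 54.3% of all genes. In limma, with Benjamini-Hochberg adjustment over all genes, 11 of the 48 fell and 1 rose. These are 22.9% falling, where 9.92% of all genes fell and 11.2% rose. The arrays of day 30 lay wholly below those of day 10 for 21 of the 48 genes (18.8% of all genes) and wholly above them for 4, Rpl38, Rpl39, Rpl3l and Rps29 (17.4% of all genes). The fall in signal was small in most: of the 11 genes, Rpl14 alone fell by more than 1. Whether signals as bright as most of these follow the amount of RNA in proportion was not tested. In RNA from whole cultures, fewer cells of a type and less RNA per cell cannot be told apart.

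**Figure D1:**
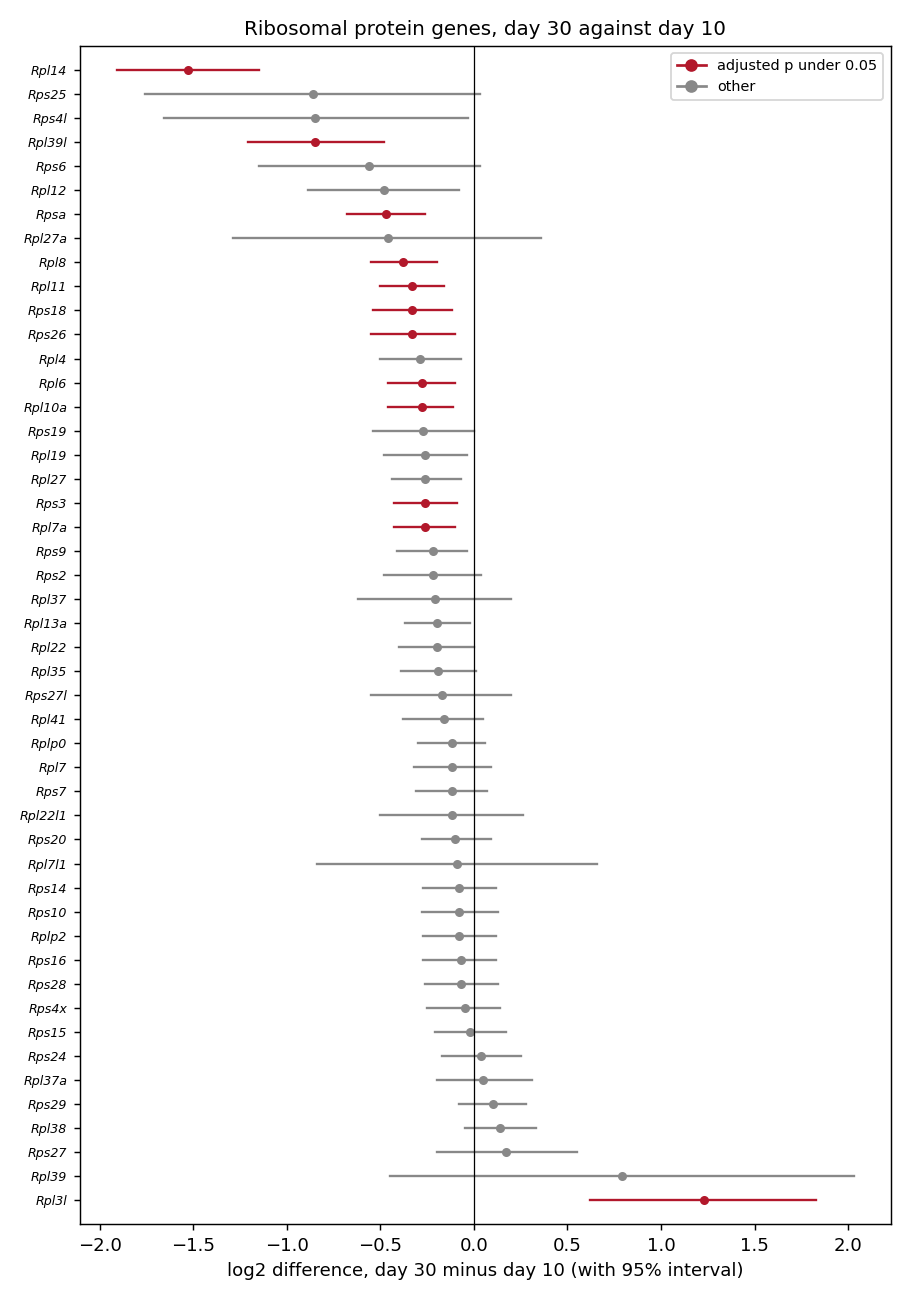
Log2 difference of each of the 48 ribosomal protein genes, day 30 minus day 10, with its 95% interval from limma. Genes run down the page in order of the difference, and the 12 genes with an adjusted p under 0.05 are in red; 41 of the 48 points lie left of 0, most of them between -0.5 and 0.

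Large subunit genes had a median difference of -0.26, and 6 of 20 fell (30.0%, against 9.92% of all genes) while 0 rose. With 1 array left out the number that fell lay between 2, without day 30 replicate 3, and 5, without day 10 replicate 3. Rpl14, a protein with no bacterial counterpart, had log2 signals of 8.06, 8.08 and 7.66 at day 10, 6.24, 6.58 and 6.44 at day 20, and 6.22, 6.31 and 6.67 at day 30. The day 10 arrays lay apart from all later ones, and the day 20 and day 30 arrays overlapped. Its difference between day 30 and day 10 was -1.53 (SE 0.17, adjusted p = 0.00086 in limma). Rpl14 has 1 probe set, of middling brightness (mean 6.92), so that no second one stands beside this value.

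Rpl8, whose protein lies beside the site of peptide bond formation, had signals of 12.88, 12.87 and 12.91 at day 10, 12.74, 12.74 and 12.73 at day 20, and 12.43, 12.60 and 12.51 at day 30. The 3 ages did not overlap, each lower than the one before. The difference between day 30 and day 10 was -0.38 (SE 0.08, adjusted p = 0.01). Rpl11, whose protein also binds the p53 regulator Mdm2 when ribosome assembly fails, had signals of 12.86, 12.87 and 12.89 at day 10, 12.84, 12.80 and 12.70 at day 20, and 12.57, 12.54 and 12.51 at day 30. The day 30 arrays were the lowest 3 of the 9, and the difference was -0.33 (SE 0.07, adjusted p = 0.015).

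Rpl10a, the protein of the L1 stalk through which spent transfer RNA leaves, Rpl6 and Rpl7a completed the large subunit genes that fell. Their day 30 means ± SD were 12.92 ± 0.07, 12.67 ± 0.01 and 13.04 ± 0.03, against 13.20 ± 0.04, 12.95 ± 0.06 and 13.30 ± 0.03 at day 10 (n = 3 arrays each). No array of day 30 reached one of day 10 in these genes, and the differences were -0.28, -0.28 and -0.26 with adjusted p = 0.035, 0.039 and 0.036 in limma. The other 14 large subunit genes did not pass the test. Among them Rpl37a, a zinc finger protein, had a difference of 0.05 (95% interval -0.20 to 0.31).

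Small subunit genes had a median difference of -0.11, and 4 of 20 fell (20.0%, against 9.92% of all genes) while 0 rose. With 1 array left out the number that fell was 4 without replicate 3 of day 10, 3 without replicate 1 of day 10, 2 without replicate 2 of day 30, and 1 without each of the other arrays. Rpsa, a small subunit protein that has also been described as a laminin receptor, had signals of 12.91, 12.83 and 12.82 at day 10, 12.60, 12.51 and 12.39 at day 20, and 12.49, 12.37 and 12.28 at day 30. Every array of day 10 lay above every later one, while day 20 and day 30 overlapped. The difference between day 30 and day 10 was -0.47 (SE 0.09, adjusted p = 0.0095 in limma). A second, dim probe set of Rpsa (mean 3.86) had a difference of -0.10.

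Rps18, Rps26 and Rps3 were the other small subunit genes that fell. Rps18 and Rps3 belong to the head of the subunit, Rps3 at the channel where messenger RNA enters, and mutation of RPS26 causes Diamond-Blackfan anaemia in humans. Their day 30 means ± SD were 12.78 ± 0.07, 12.82 ± 0.12 and 12.67 ± 0.03, against 13.11 ± 0.12, 13.14 ± 0.09 and 12.93 ± 0.07 at day 10 (n = 3 each). Day 30 and day 10 arrays did not overlap, and the differences were -0.33, -0.33 and -0.26 with adjusted p = 0.038, 0.048 and 0.044 in limma. Other probe sets of Rps18 gave unlike sizes. A bright one (mean 12.94) differed by -0.32, another bright one (mean 12.75) by -0.11, and the dim ones by -0.24 to -0.37. The lowest small subunit value was that of Rps25, -0.86, which did not pass (adjusted p = 0.16) with day 10 arrays at 8.82, 7.98 and 7.07. It passed without day 10 replicate 3 (adjusted p = 0.011 in limma), and with 1 array left out it ranged from -1.31 to -0.43. Rps29, the brightest of the 48, had a day 30 mean of 13.73 ± 0.06 against 13.63 ± 0.05 at day 10, and the difference of 0.10 did not pass (adjusted p = 0.42).

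Neither stalk gene passed the test. Rplp0, the stalk base that is widely used as a reference gene in PCR, had signals of 13.34, 13.28 and 13.20 at day 10, 13.13, 13.19 and 13.07 at day 20, and 13.18, 13.19 and 13.10 at day 30. Its day 10 arrays lay above all others, by as little as 0.01. The difference between day 30 and day 10 was -0.12 (95% interval -0.30 to 0.06) and did not pass the test. Rplp2, an acidic protein of the stalk's tip, differed by -0.08 (95% interval -0.27 to 0.12).

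**Figure D2:**
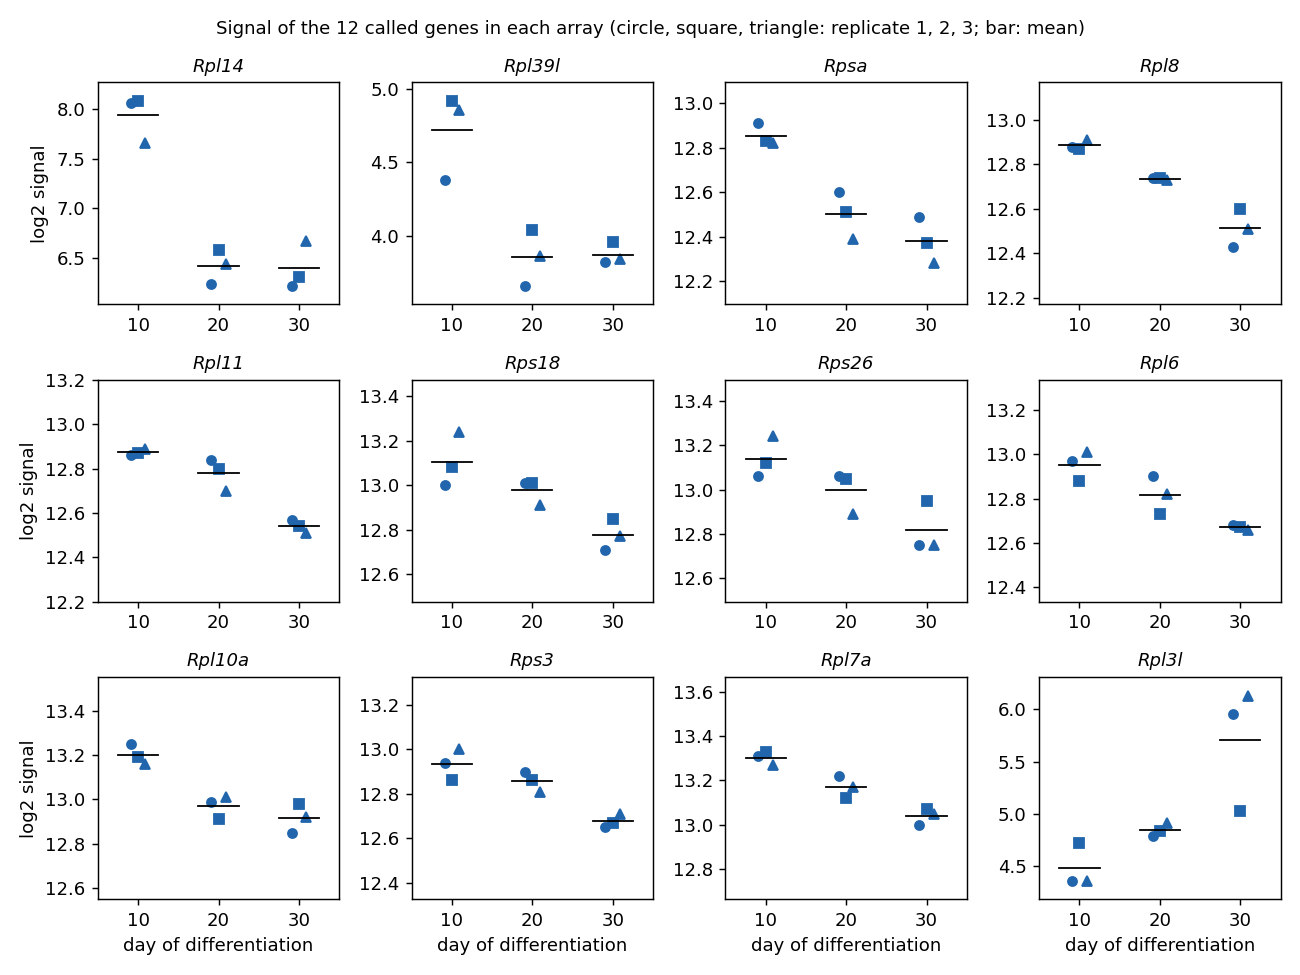
Log2 signal of the 12 genes called between day 30 and day 10, in each of the 9 arrays by day of differentiation, with the mean of each age as a bar. The vertical scale differs between panels, and in each panel the day 30 arrays lie apart from the day 10 arrays, above them only for Rpl3l.

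The calls differed in how far they rested on single arrays. Rpl14, Rpl39l, Rpsa and Rpl8 passed the test with any 1 of the 9 arrays left out. Rpl11 was lost without day 30 replicate 3 (adjusted p = 0.055) and Rpl3l without day 30 replicate 1 (adjusted p = 0.051). The remaining 6 lay near the threshold: Rps3 was lost whichever array was left out, and the other 5 were lost in 8 of the 9 fits, with adjusted p up to 0.14. Rps18 passed only without day 10 replicate 1, Rpl10a and Rpl7a only without day 10 replicate 3, Rpl6 only without day 20 replicate 1 and Rps26 only without day 30 replicate 2. In number, 5 of the 48 were called without day 30 replicate 1 or 3, 6 without day 20 replicate 2 or 3, and 7 when the array left out was replicate 2 of day 10, replicate 1 of day 20 or replicate 2 of day 30. There were 8 without replicate 1 of day 10 and 11 without its replicate 3. The number called over all 18193 genes moved as well. It fell to 1062 falling without day 30 replicate 1 and rose to 2624 without day 10 replicate 3, against 1805 with all arrays. Those rising numbered 1482 to 2460, against 2036. The median of the 48 genes lay between -0.21 and -0.17 in these fits.

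Much of the variety among the genes lay in the dim probe sets. The 35 genes of level 11 or more had differences between -0.47 and 0.14, with a median of -0.19, and 31 of them lay below 0. Of these 35, 9 fell (25.7%), where 14.0% of the other 692 genes of that level fell with a median of 0.03. The 13 dimmer genes ranged from -1.53 to 1.23. The same held over all 104 probe sets: the 66 of level 11 or more lay between -0.47 and 0.14, while 11 of the 38 dimmer ones lay below -0.5.

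Probe sets of the same gene could give unlike sizes, and the examples here were chosen after their values were seen. The brightest probe set of Rpl13a, a protein that also silences inflammatory transcripts in human monocytes, differed by -0.20, while one with a mean level of 9.64 read 8.54, 8.87 and 9.21 at day 30 and 10.66, 10.68 and 10.49 at day 10, a difference of -1.73. For Rps20, a small subunit protein, the brightest differed by -0.10 and 2 dim ones by -1.21 and -1.45. For Rps3 a dim one differed by -1.08, against -0.26 in the brightest. Of 13 genes with both bright and dim probe sets, 6 of 21 dim sets had differences below -0.5, while the brightest sets of these genes lay between -0.47 and 0.05. Which transcripts each probe set binds was not tested. Of the 24 genes with several probe sets, 7 had them on both sides of 0, none of which was called between day 30 and day 10.

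**Figure D3:**
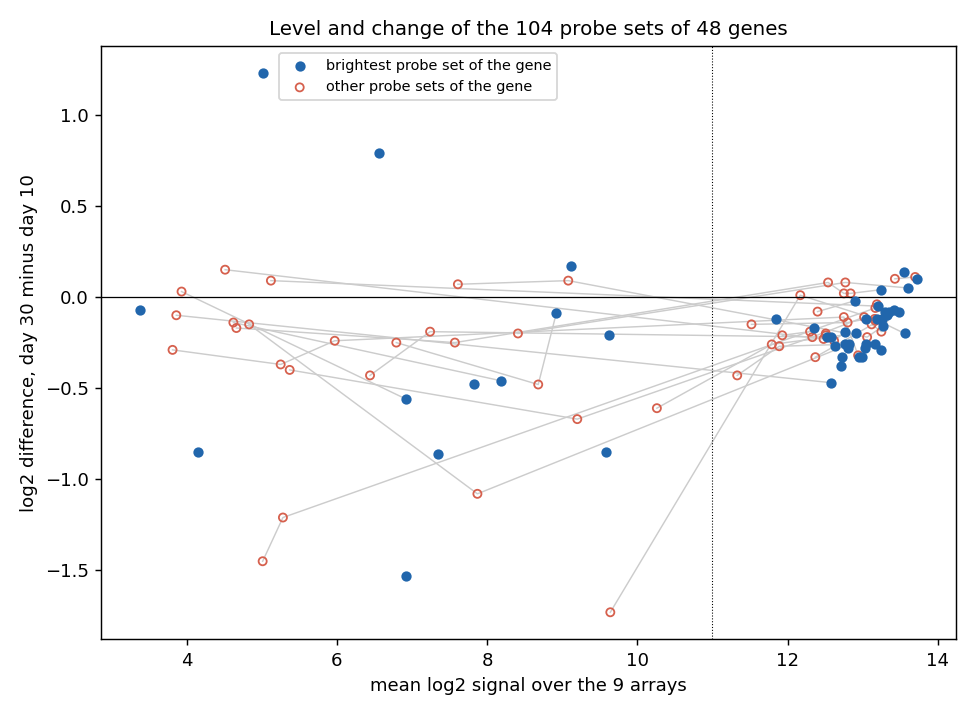
Log2 difference, day 30 minus day 10, against mean log2 signal for the 104 probe sets of the 48 genes. Filled points are the brightest probe set of each gene, open points the others, grey lines join the sets of a gene, and the dotted line is at 11; to its right all 66 points lie between -0.47 and 0.14.

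Probe sets shared by several genes also mostly read lower at day 30 than at day 10. The 110 probe sets that listed several genes, at least 1 of them matching the pattern, named 44 matching symbols between them, and 82 had a level of 11 or more. These symbols include the 29 not analysed one by one and some of the 48, and a gene can occur on several of these probe sets. The median difference of the 110 between day 30 and day 10 was -0.14, and 91 lay below 0, where 54.3% of all genes did. Between day 20 and day 10 the median was -0.03 with 60 below 0, where 55.7% of all genes lay below 0. Between day 30 and day 20 the median was -0.12 with 91 below 0, where 48.9% of all genes lay below 0. Ribosomal protein genes have many processed pseudogenes, and a shared probe set cannot say which of its genes gave the signal. Rps3a1 and Fau, small subunit genes outside the symbol pattern, had differences of -0.14 and -0.12 between day 30 and day 10 and did not pass the test.

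Of the 6 paralogs, 1 rose and 1 fell between day 30 and day 10, where 11.2% of all genes rose and 9.92% fell. Rpl3l, which replaces Rpl3 in part of the ribosomes of adult heart and skeletal muscle, had signals of 4.36, 4.72 and 4.36 at day 10, 4.79, 4.84 and 4.91 at day 20, and 5.96, 5.03 and 6.13 at day 30. The 3 ages did not overlap, and day 30 replicate 2 stood closer to day 20 than to the other day 30 arrays. The difference between day 30 and day 10 was 1.23 (SE 0.26, adjusted p = 0.013 in limma), from a probe set below the median of all genes (6.63). Its parent Rpl3 was not analysed here.

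Rpl39l, a paralog of the peptide exit tunnel protein Rpl39, had signals of 4.38, 4.92 and 4.86 at day 10, 3.66, 4.04 and 3.86 at day 20, and 3.82, 3.96 and 3.84 at day 30. The day 10 arrays lay above all others and the later ages overlapped. The difference between day 30 and day 10 was -0.85 (SE 0.16, adjusted p = 0.0083 in limma). This is from the gene's only probe set, a dim one (mean 4.15), where the lowest value on any array was 2.77. Rpl39 itself stood at 6.29, 6.09 and 5.98 at day 10, 6.07, 6.23 and 7.66 at day 20, and 6.36, 6.33 and 8.05 at day 30. Replicate 3 of day 20 and of day 30 stood far above the other 7 arrays. The difference of 0.79 did not pass (95% interval -0.45 to 2.03).

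Rps4l, an autosomal paralog of the X-linked Rps4x, had signals of 10.12, 10.27 and 10.04 at day 10, 9.35, 8.75 and 9.84 at day 20, and 9.71, 8.54 and 9.64 at day 30. All day 10 arrays lay above the later ones, replicate 2 being the lowest at day 20 and at day 30. The difference between day 30 and day 10 was -0.85 (SE 0.35), with adjusted p = 0.13. Rps4x differed by -0.05. Rps27l, which p53 induces in human cells, Rpl22l1, which Rpl22 represses in mice, and Rpl7l1 differed by -0.17, -0.12 and -0.09, none past the test. These 3 differences lay within the spread of the arrays.

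Whether a paralog and its parent changed unequally was asked of the 5 pairs with both genes measured, by an exact permutation test of the within-array difference over the 3 ages. The gap between Rpl39l and Rpl39 differed by -1.64 between day 30 and day 10, that between Rps4l and Rps4x by -0.79, and that between Rps27l and Rps27 by -0.35. Rpl22l1 against Rpl22 differed by 0.08 and Rpl7l1 against Rpl7 by 0.02. The exact p for any difference among the 3 ages, adjusted over the 5 pairs, was 0.214 for 4 of them. It was 0.407 for Rpl22l1 against Rpl22, so none passed. The smallest unadjusted p that 280 splits allow is 0.00357. Without day 10 replicate 3 the pairs Rps27l and Rps27 (exact adjusted p = 0.0179) and Rpl7l1 and Rpl7 (exact adjusted p = 0.0268) passed. With that array left out, their differences between day 30 and day 10 were -0.66 and -0.41. The exact p covers all 3 ages and does not say which of them differ. Over all arrays these gaps differed by -0.75 and -0.78 between day 20 and day 10, against -0.35 and 0.02 at day 30.

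Between day 20 and day 10, the earlier interval, 4 of the 48 genes fell (6.69% of all genes fell) and 1 rose (7.3% of all genes rose). The median of the 48 was -0.10, against -0.03 over all genes, and 34 lay below 0. Rpl14 fell by 1.51 (SE 0.17, adjusted p = 0.0017 in limma) and Rpl39l by 0.86 (SE 0.16, adjusted p = 0.013). Both calls held without any 1 array. Rpsa fell by 0.35 (adjusted p = 0.04), and its 3 day 20 arrays lay below the 3 of day 10.

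Rps6, the protein that S6 kinases phosphorylate when growth signals are active, had signals of 6.23, 6.61 and 6.50 at day 20, against 7.67, 7.83 and 6.79 at day 10. The ages did not overlap and the difference was -0.98 (adjusted p = 0.04 in limma), in a probe set of level 6.92. At day 30 its signals were 6.73, 6.85 and 7.03, above those of day 20 and overlapping those of day 10. A second, dim probe set of Rps6 (mean 3.93) differed by -0.12 between day 20 and day 10. Rps27, a zinc finger protein of the small subunit, had signals of 9.46, 9.43 and 9.48 at day 20, against 8.76, 8.57 and 9.22 at day 10. This was the rise, by 0.61 (adjusted p = 0.044), and at day 30 the gene read 8.88, 9.18 and 9.01, within the range of day 10.

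The calls of Rpsa, Rps6 and Rps27 between day 20 and day 10 were lost when any array other than day 10 replicate 3 was left out, with adjusted p up to 0.13. Without day 10 replicate 3, 9 of the 48 were called, against 2 or 3 without each of the other 8 arrays. The share of all genes called in these fits was not counted. The arrays of day 20 lay wholly below those of day 10 for 14 genes (17.3% of all genes) and wholly above for 3 (14.5% of all genes).

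Between day 30 and day 20, the later interval, 0 of the 48 genes passed the test in limma, where 0.291% of all genes rose and 0.044% fell (0.335% in all). At an unadjusted p under 0.05 there were 8 (16.7%, against 10.9% of all genes), of which 6 lay below 0. The median of the 48 was -0.08, against 0.00 over all genes, and 36 lay below 0. The arrays of day 30 lay wholly below those of day 20 for 12 genes (9.72% of all genes), among them Rpl8 (-0.23), Rpl11 (-0.24), Rpl6 and Rps3, and wholly above for 3 (11.7% of all genes). Rpl3l was the highest of the 48 at 0.86 (adjusted p = 0.27), and it was called without day 30 replicate 2. Fits with a mean-variance trend, array weights, quantile normalization or a replicate block called 0 as well.

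The test of the later change against the earlier change called 0 of the 48, where 0.154% of all genes passed above 0 and 0.324% below 0 (0.478% in all). There were 5 at an unadjusted p under 0.05 (10.4%, against 15.5% of all genes). These were Rpl14 (1.49), Rpl39l (0.88), Rpl7l1 (1.60), Rps6 (1.40) and Rps27 (-1.04), with adjusted p between 0.078 and 0.24. Without day 10 replicate 3 there were 4 calls, Rpl14, Rpl7l1, Rps27 and Rps6. In the bright genes the pattern was more even: the 35 of level 11 or more had a median of -0.09 between day 20 and day 10 and of -0.09 between day 30 and day 20. In the 13 dimmer ones the medians were -0.49 and 0.02.

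Seen array by array, the 48 genes had a median deviation from their 9-array means of 0.12, 0.07 and 0.11 at day 10, 0.05, 0.00 and -0.03 at day 20, and -0.14, -0.04 and -0.10 at day 30. The day 30 arrays lay below all others and the day 10 arrays above all others, though narrowly where nearest (-0.04 against -0.03, and 0.07 against 0.05). Large subunit genes read 0.13, 0.08 and 0.13 at day 10, 0.06, -0.03 and -0.02 at day 20, and -0.17, -0.05 and -0.13 at day 30, the day 30 arrays again below all others. Small subunit genes read 0.04, 0.01 and 0.10 at day 10, 0.06, 0.03 and -0.03 at day 20, and -0.12, -0.03 and -0.07 at day 30. Their day 20 arrays overlapped those of day 10, and day 20 replicate 3 and day 30 replicate 2 both read -0.03.

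**Figure D4:**
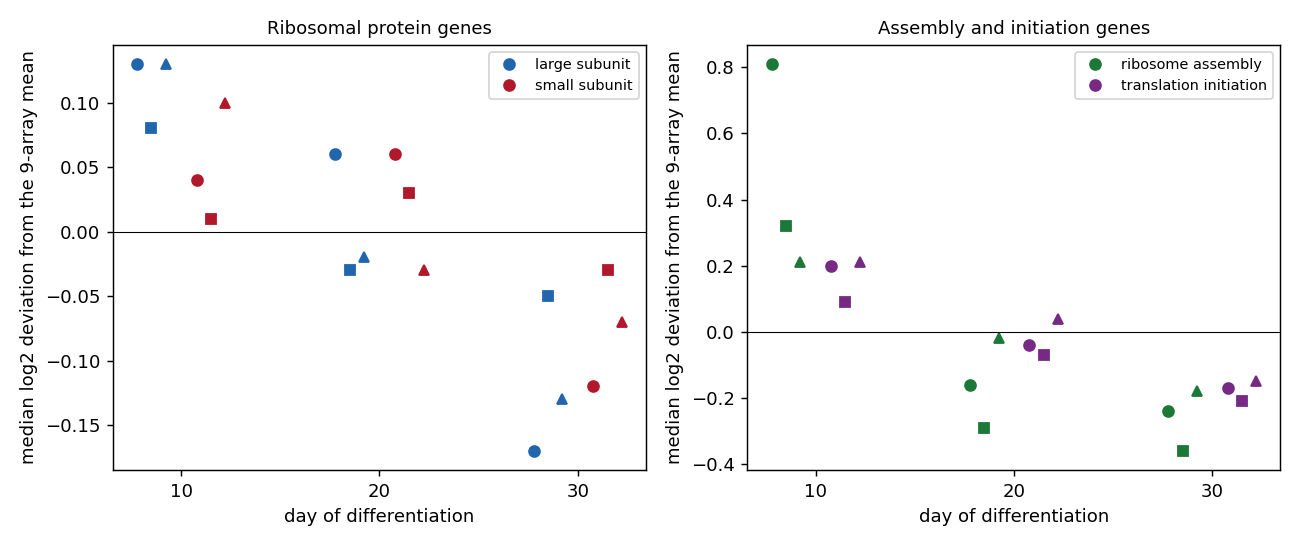
Median log2 deviation from the 9-array mean in each array, by day of differentiation, for large and small subunit genes on the left and for ribosome assembly and translation initiation genes on the right. Circles, squares and triangles are replicates 1, 2 and 3, shifted sideways for legibility; the right panel spans about -0.4 to 0.8 and the left about -0.2 to 0.15.

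Lists of other genes of protein synthesis had median differences between day 30 and day 10 from -0.72 to -0.01, against -0.03 over all genes. The share that fell was 64.2% for ribosome assembly, 40.0% for RNA polymerase I, 29.4% for initiation, 50.0% for elongation and termination, 16.0% for control of ribosome synthesis and 13.2% for mitochondrial ribosomal proteins, against 9.92% of all genes. Of 67 genes of ribosome assembly and ribosomal RNA processing, 43 fell and 0 rose, with a median difference of -0.72. Fbl, the methyltransferase of box C/D particles, fell by 1.28 (adjusted p = 0.0017 in limma), and its partner Nop58 fell by 1.48 (adjusted p = 0.0019). Gar1, of the particles that make pseudouridine, fell by 0.98, and the ribosomal RNA methyltransferase Nop2 by 1.22. In Fbl the day 10 arrays read 11.26, 10.95 and 10.52, the day 20 arrays 9.83, 9.77 and 9.84, and the day 30 arrays 9.64, 9.62 and 9.64, with no overlap between ages. The calls of these 4 genes held without any 1 array, while the number that fell was 24, 25 and 27 without day 30 replicate 2, 1 and 3, and between 33 and 54 without each of the other arrays.

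Of 15 genes of RNA polymerase I and its factors, which make the large ribosomal RNA precursor, 6 fell and 0 rose, with a median of -0.44. Taf1d, of the promoter selectivity factor, fell by 1.17, the subunits Polr1c and Polr1d, shared with RNA polymerase III, by 0.84 and 0.59, and the largest subunit Polr1a by 0.56. These 4 calls held without any 1 array. The number that fell was 10 without day 10 replicate 3, 5 without day 20 replicate 1 or 2, and 4 without each of the other 6 arrays.

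Of 34 translation initiation genes, 10 fell and 0 rose, with a median of -0.35. The helicase gene Eif4a1 fell by 0.99, and the genes of eIF3 subunits Eif3l, Eif3d and Eif3a by 0.97, 0.79 and 0.58. The number that fell lay between 7 and 13 with 1 array left out, except for 6 without day 30 replicate 2. Of 14 elongation and termination genes, 7 fell and 1 rose, with a median of -0.37. The release factor gene Etf1 fell by 0.65 and its partner Gspt1 by 0.55, the exchange factor gene Eef1d by 0.65 and Eef1e1, a scaffold protein of the synthetase complex, by 1.20. The call of Gspt1 was lost without day 10 replicate 1 or 2 or day 30 replicate 1. The number that fell was 4 without day 10 replicate 2 or day 30 replicate 1 or 3, and 5 to 8 otherwise.

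Eef1a1, the general form of elongation factor eEF1A, differed by -0.14 between day 30 and day 10 (adjusted p = 0.22). Eef1a2, the form of adult heart, muscle and neurons, read 11.21, 11.15 and 11.29 at day 30, against 8.62, 10.65 and 9.75 at day 10. No arrays overlapped and it rose by 1.55 (adjusted p = 0.036 in limma), a call that was lost when any array other than day 10 replicate 1 or 2 was left out.

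Of 76 mitochondrial ribosomal protein genes, whose products serve the separate ribosome of the organelle, 10 fell (13.2%, against 9.92% of all genes) and 1 rose, with a median of -0.26 that became -0.15 without day 30 replicate 2. Mrps18b fell by 0.72, Mrps30 by 0.60, Mrps5 by 0.49 and Mrpl21 by 0.47. The call of Mrps18b was lost without day 30 replicate 2 or 3. The number that fell was 3 without day 30 replicate 2, 4 without day 10 replicate 2, 5 without replicate 1 of day 10 or replicate 3 of day 30, and 23 without replicate 3 of day 10.

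Of 25 genes that control ribosome synthesis and translation, 4 fell and 1 rose, with a median of -0.01. Mycn, a transcription factor that drives ribosome genes in embryonic tissue, read 10.49, 9.33 and 8.33 at day 10, 6.21, 6.40 and 6.88 at day 20, and 5.08, 5.57 and 5.58 at day 30, with no overlap between ages. It fell by 3.97 (SE 0.48, adjusted p = 0.0013 in limma). Its relative Myc differed by 0.38 and did not pass. Larp4, which binds poly(A) tails, fell by 0.69, and Eif4ebp2, which holds back cap-dependent initiation, by 0.80, while the kinase gene Akt2 rose by 0.53. The call of Eif4ebp2 was lost without any of 6 arrays (adjusted p up to 0.11) and that of Akt2 without day 30 replicate 3. The number that fell was 2 without day 10 replicate 1, day 20 replicate 3 or any 1 array of day 30.

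**Figure D5:**
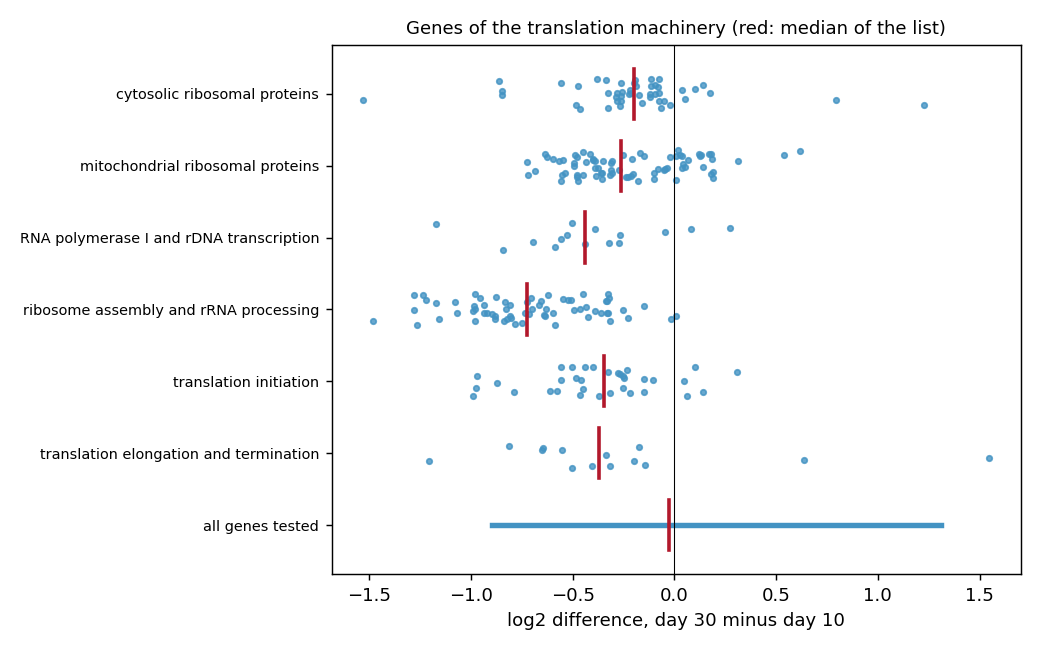
Log2 difference, day 30 minus day 10, of each gene in the lists of the translation machinery, with the median of each list in red. The bottom line spans the 5th to the 95th percentile of all genes tested; the medians of the 6 lists lie between -0.72 and -0.20, and that of all genes at -0.03.

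Other features of the cultures moved with age beside these genes. For comparison with the counts below, 11.2% of all genes rose and 9.92% fell between day 30 and day 10 over all 9 arrays. The labelled cell type was checked by 15 cardiomyocyte markers, which had a mean log2 signal of 12.07 ± 0.40 at day 10, 12.40 ± 0.19 at day 20 and 12.58 ± 0.13 at day 30 (SD, n = 3 each), and 2 of them rose, or 6 without day 10 replicate 3. The log2 of their summed signal ranged from 16.42 to 16.92 at day 10, 16.74 to 17.03 at day 20 and 16.94 to 17.07 at day 30. Slc8a1, the gene of Ncx1 itself, read 9.20, 9.80 and 9.89 at day 10, 8.33, 7.94 and 8.24 at day 20, and 9.31, 7.65 and 8.54 at day 30. It fell by 1.46 between day 20 and day 10 (adjusted p = 0.041 in limma), a call lost without 7 of the 9 arrays in turn (all but replicates 1 and 2 of day 30). Between day 30 and day 10 it differed by -1.13 (adjusted p = 0.073) and passed without day 30 replicate 1 (adjusted p = 0.021). Of 22 fibroblast and matrix markers 20 rose between day 30 and day 10, and the log2 of their summed signal ranged from 14.23 to 14.43 at day 10, 15.89 to 16.71 at day 20 and 16.85 to 17.18 at day 30. Of 10 pluripotency markers 7 fell, with summed levels of 9.98 to 10.82, 8.36 to 8.57 and 8.25 to 8.50 at these ages. Of 24 cell cycle genes 11 fell, with a median of -2.01, but 2 without replicate 1 or 2 of day 10 or of day 30, 5 without replicate 3 of day 20 or of day 30, and 23 without day 10 replicate 3. Of 9 neural markers 4 fell, but 0 without any 1 day 30 array, and 2, 1 and 6 without day 10 replicates 1, 2 and 3. Of 11 markers of endoderm and epithelium 3 fell, Krt8, Krt18 and Cdh1, and 1 rose. Of 9 smooth muscle markers 3 rose and 2 fell, and of 12 endothelial markers 1 rose and 1 fell, with 5 falling without day 10 replicate 1 and 0 without replicate 2 of day 10 or replicate 1 of day 30. The summed levels of the neural markers were 9.17 to 10.17 at day 10, 8.10 to 9.09 at day 20 and 8.23 to 9.03 at day 30, and those of endoderm and epithelium averaged 10.74 ± 1.18, 9.03 ± 0.04 and 9.27 ± 0.20 (SD, n = 3 each). The part of these markers in the values of the ribosomal protein genes was not tested.

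Day 30 replicate 2 stood apart in the array controls, with an 18S ribosomal RNA signal of 10.27 where the other 8 arrays read 12.07 to 13.44. Ribosomal protein genes in that array deviated by -0.04, the least of the day 30 arrays, and Rpl27a, a large subunit gene, read 6.99 there against 7.91 to 8.61 elsewhere. Without that array the median difference of the 48 genes between day 30 and day 10 was -0.20. By an exact permutation test over the 3 ages, the 18S signal (p = 0.689), the 3′ minus 5′ differences of beta-actin (p = 0.486) and Gapdh (p = 0.768) and the poly-A spikes (p = 0.075) did not pass. The spikes averaged 5.48 ± 0.60 at day 10, 6.40 ± 0.30 at day 20 and 6.0 ± 0.16 at day 30 (SD, n = 3), and without day 10 replicate 1 they passed (exact p = 0.00357). Their part in the results was not tested.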

How the data were processed

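Total RNA of the 9 samples was labelled with biotin by an Affymetrix 3′ IVT kit, per the labels' protocols. The values used are the log2 signals the authors deposited, 1 per probe set and array. Their normalization is not given in the sources used here, and the base was inferred from their range (2.77 to 14.52); array medians lay between 5.48 and 5.56, so they were used as deposited. No scanner files were used, so background was not judged per probe, and the number of arrays limits the precision.

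Of 45101 probe sets, 34958 listed a single gene symbol, 932 several and 9211 none. The 64 array controls among them, 13 with a single symbol, were left out, which leaves 34945 probe sets with 1 symbol. Symbols of 34741 were found by gene identifier in the RefSeq table and 0 differed. The probe set with 1 symbol and the highest mean represented a gene (18193 genes, no filter on low signal). With limma 3.58.1 (R 4.3.3), lmFit gave each day its mean over the 9 arrays, and eBayes added 2.18 prior to 6 residual degrees of freedom. The limma tests were two-sided, Benjamini-Hochberg adjustment ran over all genes, and the threshold was 0.05. The fit was tested on simulated data. Paralog pairs and control probe sets were tested by exact permutation of a one-way F statistic over 280 splits.

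Members, gene lists and tests were chosen with earlier results of these data known. Named are members called in any contrast of days, paralogs with their parents, the stalk genes and Rpsa, the 3 brightest and 3 dimmest, and up to 4 genes per list by adjusted p with Eef1a1, Eef1a2, Myc and Mycn; others were chosen after their values were seen. Counts of a list are descriptions, with no test of the list. Alternatives were other normalizations, probe set rules, a filter, array weights, a mean-variance trend, fits of 2 days, a replicate block and leaving out each array; for the companion lists the last was added after seeing the data.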

Additional observations from a re-analysis of the deposited data

How the results depend on the processing

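The count of ribosomal protein genes called between day 30 and day 10 was 12 of 48. It was 4 of 44 with a filter, where fit and adjustment were rerun on genes above the median level alone. In the main fit 10 of these 44 fell and 0 rose. The count was 6 from the arrays of those 2 days alone, 6 with a replicate block, and 5 to 11 with 1 array left out. It was 18 with array weights, 15 with the mean of all probe sets, 14 with a mean-variance trend, 13 without sets ending in _x_at or _s_at, 12 with array medians set equal and 10 with quantile normalization. The median of -0.20 became -0.26 with the mean of all probe sets and -0.26 over the 43 genes with a probe set not ending in _x_at or _s_at, and lay between -0.21 and -0.17 with 1 array left out. Between day 20 and day 10 the count of 5 was 3 with the filter, 9 with array weights, 2 from 2 days alone, 3 with the replicate block and 2 to 9 with 1 array left out. Between day 30 and day 20 it was 0 to 1 with 1 array left out. For the later against the earlier change it was 5 with array weights and 0 to 4 with 1 array left out, where the median ranged up to 0.03. Calls over all genes were counted again only for day 30 against day 10 with 1 array left out. The other counts here therefore have no share of all genes beside them.

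Small differences changed sign between day 30 and day 10. Rpl37a read -0.02 and Rps4x 0.02 with the mean of all probe sets, and Rps4x read 0.003 with array weights. With 1 array left out, Rpl22l1 ranged from -0.31 to 0.008, Rpl37a from -0.05 to 0.12, Rpl7l1 from -0.46 to 0.16, Rps27l from -0.30 to 0.002 and Rps4x from -0.09 to 0.02. Rpl7l1 against Rpl7 read -0.14 with the mean of all probe sets. With 1 array left out, Rpl22l1 against Rpl22 ranged from -0.16 to 0.22, Rpl7l1 against Rpl7 from -0.41 to 0.28 and Rps27l against Rps27 from -0.66 to -0.13. The 18S difference ranged from -1.30 to 0.10 and that of Gapdh from -0.02 to 0.11. With the mean of all probe sets Rpl13a passed at -0.51 (adjusted p = 0.0029 in limma), and Rps6 passed with array weights at -0.83.

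The causes of these changes were not tested. Deviations of arrays with the same replicate number correlated between -0.15 and 0.43 across days, and an array correlated best with its own number in 8 of 18 comparisons with another day, so the numbers were not taken as pairs. Dim probe sets, the unstated normalization and 3 arrays at each age limit what small differences can show. Whether the brightest signals understate differences in RNA was not tested.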
